A study of Mus musculus with 19 samples.

Results

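The genes described here encode the subunits of the proteasome and the factors that assemble, activate or inhibit it. Members were the rows whose gene symbol began with Psma, Psmb, Psmc, Psmd, Psme, Psmf or Psmg followed by a digit, without pseudogene rows, which gave 50 of 24394 genes. They comprised 8 alpha ring genes, 8 beta ring genes, 3 immunoproteasome genes, 6 ATPase genes, 3 non-ATPase base genes, 8 lid genes, 7 assembly chaperone genes, 5 activator genes, 1 inhibitor gene and Psmc3ip, which matches the name but encodes a recombination factor and no subunit. The 19 Psma and Psmb genes are called the core and the 21 Psmc and Psmd genes, Psmc3ip and the base chaperones included, the regulatory particle in what follows. The proteasome degrades proteins tagged with ubiquitin: stacked alpha and beta rings form a barrel whose beta subunits cut the peptide chain, and the regulatory particle binds the tagged protein, removes the ubiquitin and unfolds it with its ring of ATPases. Dedicated chaperones build both parts and do not stay in the finished particle. In neurons, proteasomal degradation shapes synapses and removes damaged proteins.

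The samples were pieces of brain holding hippocampus with cortex, taken from 1 hemisphere of each of 19 male C57BL/6NJ mice, with 1 RNA library per mouse, all collected at zeitgeber time 20. KO mice lacked Fabp7, a fatty acid binding protein of astrocytes and neural stem cells, and WT mice carried the intact gene. MEST mice, named after the maximal electroshock seizure threshold test, had received 1 shock per day through ear clips, starting at 20 mA and rising by 2 mA, until the hind limbs extended tonically. Sham mice were handled without a shock. The groups were KO MEST (5 mice, 18.9 to 19.4 weeks old), WT MEST (5 mice, 17.4 to 18.0 weeks), KO sham (4 mice, 17.3 to 17.9 weeks) and WT sham (5 mice, 15.9 to 16.3 weeks). The WT sham mice were younger than every other mouse, so that age and group cannot be told apart in any comparison with them, nor in KO MEST over WT MEST or KO MEST over KO sham mice.

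Between 27.6 and 51.7 M reads fell in genes per library. Levels are given in CPM, a gene's reads per 1000000 reads of its library, whose total was scaled by a TMM factor. Fabp7 was at 0 to 0.0876 CPM in KO MEST and 12.7 to 18.0 CPM in WT MEST libraries, and at 0.0515 to 0.197 CPM in KO sham and 10.2 to 14.7 CPM in WT sham libraries. Markers of astrocytes, oligodendrocytes, microglia, excitatory and inhibitory neurons, hippocampal subfields and cortical layers were all above 0 in every group. The same held for choroid plexus, striatum and thalamus, with sums of 864 to 1895, 296 to 552 and 215 to 382 CPM per library. The hippocampal subfield markers summed to 239 to 348 CPM. The WT sham libraries stood apart from all others: on the first principal component of all expressed genes, with 16.6% of the variance, they lay between -30.8 and -20.4 and the other 14 libraries between 1.64 and 14.2. KO sham replicate 3 stood apart within its group. Of 48 members with a mean of at least 1 CPM, 45 were above the mean of the other KO sham libraries in it, by a median of 0.29 on the log2 scale, against a median of 0.02 over 13400 genes. All members together took 0.430% of the reads of that library, and 0.343% to 0.392% in the other 18. Counts of calls and medians over the members are given with and without it. In bulk tissue, fewer cells of a type and less RNA per cell cannot be told apart.

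The promoters of the members are shown for 5 genes that carry the results below, namely Psmb3 and Psmb4, which were low in WT sham libraries, Psmc1 and Psmc6, which were high there, and Psmb6, which was higher in KO than in WT mice in both conditions. Each line gives the bases before the gene start (RefSeq, GRCm38.p6), 5′ to 3′ along the gene, ending where the GENCODE gene begins if that lies further upstream. The coordinates are chr11:97703184-97703398 for Psmb3 (plus strand), chr3:94886962-94887208 for Psmb4 (minus strand), chr11:70525107-70525356 for Psmb6 (plus strand), chr12:100109952-100110153 for Psmc1 (plus strand) and chr14:45329574-45329787 for Psmc6 (plus strand). Capitals mark the letters TGACNNNGC, the core of the antioxidant response element to which Nfe2l1, the main activator of proteasome genes, binds, and CCAAT, the box bound by NF-Y, each on either strand.
Psmb3: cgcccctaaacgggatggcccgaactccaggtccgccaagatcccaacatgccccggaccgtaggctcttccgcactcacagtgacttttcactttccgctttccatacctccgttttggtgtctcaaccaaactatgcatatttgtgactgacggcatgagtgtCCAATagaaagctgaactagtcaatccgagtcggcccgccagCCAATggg
Psmb4: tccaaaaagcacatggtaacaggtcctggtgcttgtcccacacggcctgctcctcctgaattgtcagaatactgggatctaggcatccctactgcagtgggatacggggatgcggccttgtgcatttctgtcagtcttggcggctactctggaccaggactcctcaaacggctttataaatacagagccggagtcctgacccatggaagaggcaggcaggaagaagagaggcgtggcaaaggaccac
Psmb6: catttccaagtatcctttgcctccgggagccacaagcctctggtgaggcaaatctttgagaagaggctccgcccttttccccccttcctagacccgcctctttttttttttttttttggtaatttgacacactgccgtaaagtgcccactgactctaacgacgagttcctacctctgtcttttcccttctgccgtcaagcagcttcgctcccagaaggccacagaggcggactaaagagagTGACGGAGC
Psmc1: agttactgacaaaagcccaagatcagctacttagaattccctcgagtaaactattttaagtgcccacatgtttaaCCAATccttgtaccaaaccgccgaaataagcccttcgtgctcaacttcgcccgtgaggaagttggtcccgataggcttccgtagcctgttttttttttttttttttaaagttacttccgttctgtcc
Psmc6: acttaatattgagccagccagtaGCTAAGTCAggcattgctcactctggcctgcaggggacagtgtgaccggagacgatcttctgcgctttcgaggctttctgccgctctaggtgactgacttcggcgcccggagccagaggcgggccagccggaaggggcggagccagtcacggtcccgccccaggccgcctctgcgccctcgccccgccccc

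In the 250 bases before the RefSeq start, 42 of the 50 members had a sequence and 5 of them (Psmb5, Psmb6, Psmc6, Psmd9 and Psmd12) held TGACNNNGC on either strand, which is 11.9%, against 11.5% of 27025 genes. The letters CCAAT occurred in 15 members, or 35.7%, against 37.5% of all genes. Among those 15 were Psmb3 with 2 copies and Psmc1 with 1 copy in the stretches shown. Both shares lay close to those of all genes. A match is a description of the letters only. The 2 motifs did not overlap in the sequences shown.

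Levels differed between the roles once divided by length. The median level per kb of exonic length was 38.2 CPM per kb for the beta ring, 29.1 for the alpha ring, 50.6 for the ATPases, 33.9 for the base without ATPases and 27.7 for the lid. Psmc5 was the most abundant member on this scale, at 133 CPM per kb. The immunoproteasome genes had a median of 0.857 and the chaperones of 7.05 CPM per kb. At the bottom stood the testis alpha subunit Psma8 with 4 to 25 reads per library and the thymus beta subunit Psmb11 with 0 to 14 reads per library, and both are known to be confined to those organs. The median within-group coefficient of variation of the members' CPM was 6.50% in KO MEST, 5.33% in WT MEST, 11.7% in KO sham and 6.55% in WT sham libraries.

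The balance of the core to the regulatory particle set the WT sham libraries apart from all others. The log2 ratio of summed core CPM over summed regulatory particle CPM was -0.859, -0.919, -0.928, -0.928 and -0.950 in KO MEST, -0.829, -0.849, -0.837, -0.909 and -0.857 in WT MEST, -0.811, -0.782, -0.824 and -0.821 in KO sham, and -1.07, -1.05, -1.07, -1.03 and -1.08 in WT sham libraries. Every WT sham library lay below every other library. KO MEST libraries all lay below KO sham libraries, and overlapped with WT MEST libraries. The group means were -0.917 ± 0.0345 in KO MEST, -0.856 ± 0.0314 in WT MEST, -0.810 ± 0.0191 in KO sham and -1.06 ± 0.0193 in WT sham mice (SD, n = 5, 5, 4 and 5), and the mean linear ratios of core to regulatory particle CPM were 0.530, 0.553, 0.571 and 0.481 in the same order. The difference of means was 0.25 for KO sham over WT sham, 0.20 for WT MEST over WT sham, -0.06 for KO MEST over WT MEST and -0.11 for KO MEST over KO sham, and it stayed between 0.24 and 0.25, 0.19 and 0.21, -0.08 and -0.05, and -0.12 and -0.10 when 1 library was left out at a time. As a score over the members the ratio was given no test.

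**Figure D1:**
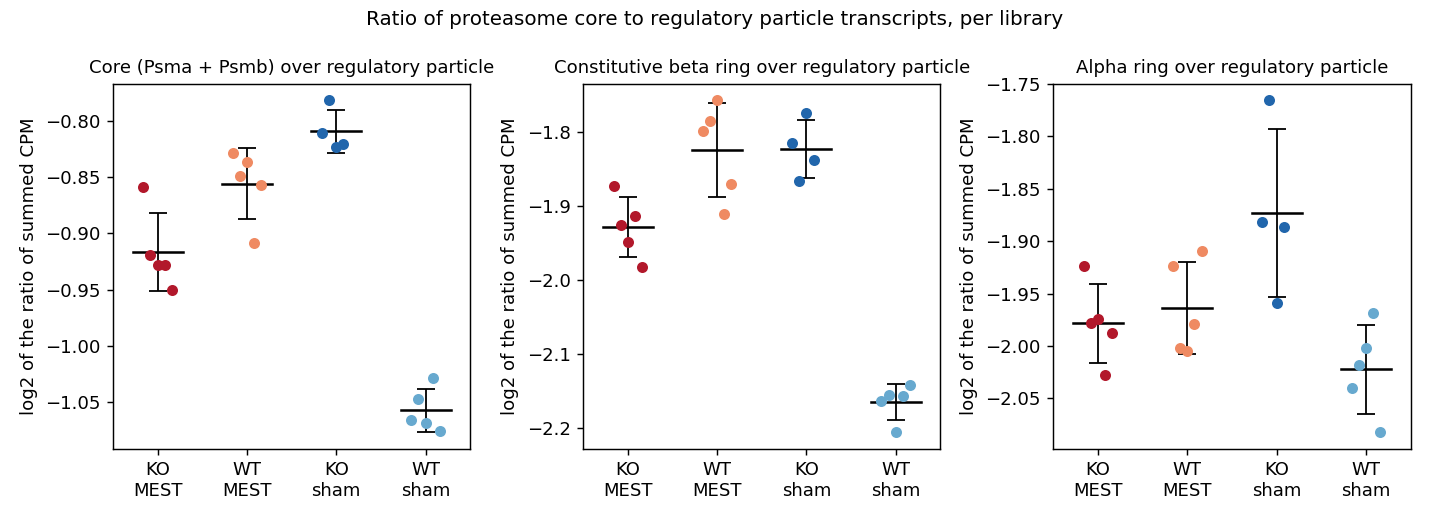
The plot of the ratios shows the log2 of the ratio of summed CPM (vertical axis) for the 4 groups, 1 point per library, with the group mean (line) and SD (error bar). The 5 WT sham libraries lie lowest for the core, between -1.08 and -1.03, and for the constitutive beta ring, whereas the alpha ring ratio overlaps between WT sham and both MEST groups.

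The beta ring and the alpha ring differed in this respect. The log2 ratio of the constitutive beta ring to the regulatory particle was -1.93 ± 0.0407 in KO MEST, -1.82 ± 0.0639 in WT MEST, -1.82 ± 0.0388 in KO sham and -2.16 ± 0.0242 in WT sham libraries (SD), with every WT sham library lowest. For the alpha ring the same ratio was -1.98 ± 0.0375, -1.96 ± 0.0443, -1.87 ± 0.0801 and -2.02 ± 0.0425 in that order of groups, and WT sham libraries overlapped with those of both MEST groups but not with those of KO sham mice. Within the core, the log2 ratio of beta to alpha ring ranged from 0.00556 to 0.114 in KO MEST, 0.0397 to 0.247 in WT MEST, -0.101 to 0.185 in KO sham and -0.203 to -0.0595 in WT sham libraries. WT sham libraries were below all MEST libraries in this ratio and overlapped with KO sham libraries. Within the regulatory particle, the log2 ratio of ATPases to lid was 0.24 ± 0.0427 in KO MEST, 0.19 ± 0.0257 in WT MEST, 0.21 ± 0.0506 in KO sham and 0.31 ± 0.0272 in WT sham libraries, all WT sham libraries being highest. Without the immunoproteasome, tissue-restricted and chaperone genes, the core ratio was -0.892 ± 0.0334, -0.825 ± 0.0299, -0.783 ± 0.0188 and -1.04 ± 0.0192 in the same order.

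The first comparison asked how the loss of Fabp7 changed these genes in unshocked mice. In KO sham over WT sham tissue, 12 of 49 members tested were higher and 2 lower at an adjusted p under 0.05 (limma, adjusted over all genes), against 8.18% of all 16182 genes higher and 7.18% lower. The higher members were of 3 kinds: 5 of 7 beta ring genes, 5 of 7 assembly chaperones, and the alpha subunit Psma7 with the immunoproteasome subunit Psmb10. The lower members were the ATPase Psmc1 and the activator Psme4. The median log2 fold change was 0.08 over the members and -0.02 over all genes, with 32 of 49 members above 0. Without KO sham replicate 3 the median of the members was 0.02, with 25 of 49 above 0. In 13 members every KO sham library lay above every WT sham library, against 9.26% of all genes, and in 1 member (Psme4) below, against 7.54%. Without KO sham replicate 3, 9 members were higher and 8 lower: Psmb1, Psmd10 and Psmg4 dropped out of the first, and Psmd14 (-0.32), Psmc6 (-0.31), Psmc2 (-0.30), Psmd1 (-0.22), Psma4 (-0.22) and Psmd7 (-0.18) joined the lower ones. Over all genes, 1388 were higher and 1481 lower without KO sham replicate 3, against 1323 and 1162 with it. Without WT sham replicate 5, 7 members and 989 of all genes were higher. The count of lower members was 0 without KO sham replicate 4, and 1 without KO sham replicates 2 or 5 or WT sham replicates 2, 3, 4 or 5. Over all genes, 816 to 935 were lower in these fits.

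The second comparison asked how seizures changed these genes in mice with Fabp7. In WT MEST over WT sham tissue, 11 of 50 members were higher and 7 lower, against 12.3% higher and 12.3% lower among all 16080 genes, so that the share of members called was above the background in the upward direction and near it in the downward one. The higher members were 4 of 8 beta ring genes, 5 of 7 chaperones, the lid subunit Psmd6 and the inhibitor Psmf1. The lower members were 3 of 6 ATPases (Psmc1, Psmc2 and Psmc6), the base subunit Psmd1, the lid subunits Psmd7 and Psmd14, and the alpha subunit Psma4. The median log2 fold change was 0.01 over the members and 0.00 over all genes (-0.00364). In 9 members every WT MEST library lay above every WT sham library, against 8.74% of all genes, and in 4 below, against 7.97%. This comparison and the one above share the WT sham libraries. Leaving out any 1 library left 8 to 11 members higher and 7 to 8 lower. Over all genes, 1647 to 1914 were then higher and 1619 to 1943 lower.

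The third comparison set the genotypes against each other after seizures. Mice were shocked until their hind limbs extended, so the number of shocks and the last current may have differed between the genotypes. The part of these was not tested. In KO MEST over WT MEST tissue, 6 of 50 members were higher and 1 lower, against 5.65% and 4.27% of all 16061 genes. Of the higher ones, 5 belonged to the regulatory particle (Psmc1, Psmc3, Psmd4, Psmd7 and Psmd8) and 1 to the beta ring (Psmb6), while Psmb4 was the lower one. The changes were small, between 0.18 and 0.26 on the log2 scale upward. The median log2 fold change was 0.05 over the members and 0.00 over all genes (0.00155). In 4 members every KO MEST library lay above every WT MEST library, against 5.0% of all genes, and in 0 below, against 3.68%. The count of higher members fell to 1 without KO MEST replicate 2 or WT MEST replicate 4, to 2 without KO MEST replicate 5, and to 3 without KO MEST replicate 3 or WT MEST replicate 1. Over all genes the higher calls fell too, from 907 to 463, 553, 561, 533 and 588 in that order. The lower member, Psmb4, lost its call without KO MEST replicates 3 or 5 or WT MEST replicates 1 or 3.

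The fourth comparison asked how seizures changed these genes in mice without Fabp7, and no member passed. In KO MEST over KO sham tissue 0 of 50 were higher and 0 lower (limma), against 0.904% and 0.489% of all 16147 genes. At an unadjusted p under 0.05, 2 members were higher and 4 lower, against 9.69% higher and 8.08% lower of all genes, and edgeR and DESeq2 also called 0 in each direction. Without KO sham replicate 3 these unadjusted counts were 14 higher and 1 lower, against 11.7% and 9.04% of all genes, and still 0 passed in each direction after adjustment. The median log2 fold change of the members was -0.01 with that library and 0.07 without it. In Psmd11 every KO MEST library lay above every KO sham library, against 4.06% of all genes, and in Psme2 below, against 3.62%. Psmd11, a lid subunit, averaged 58.5 ± 1.08 CPM in KO MEST and 52.7 ± 2.34 CPM in KO sham mice (log2 fold change 0.15 ± 0.05, adjusted p = 0.164). Psme2, a subunit of the PA28 activator, averaged 13.7 ± 0.901 CPM in KO MEST and 16.2 ± 1.51 CPM in KO sham mice (-0.24 ± 0.08, adjusted p = 0.154). A p that misses the threshold does not show that levels were equal.

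**Figure D2:**
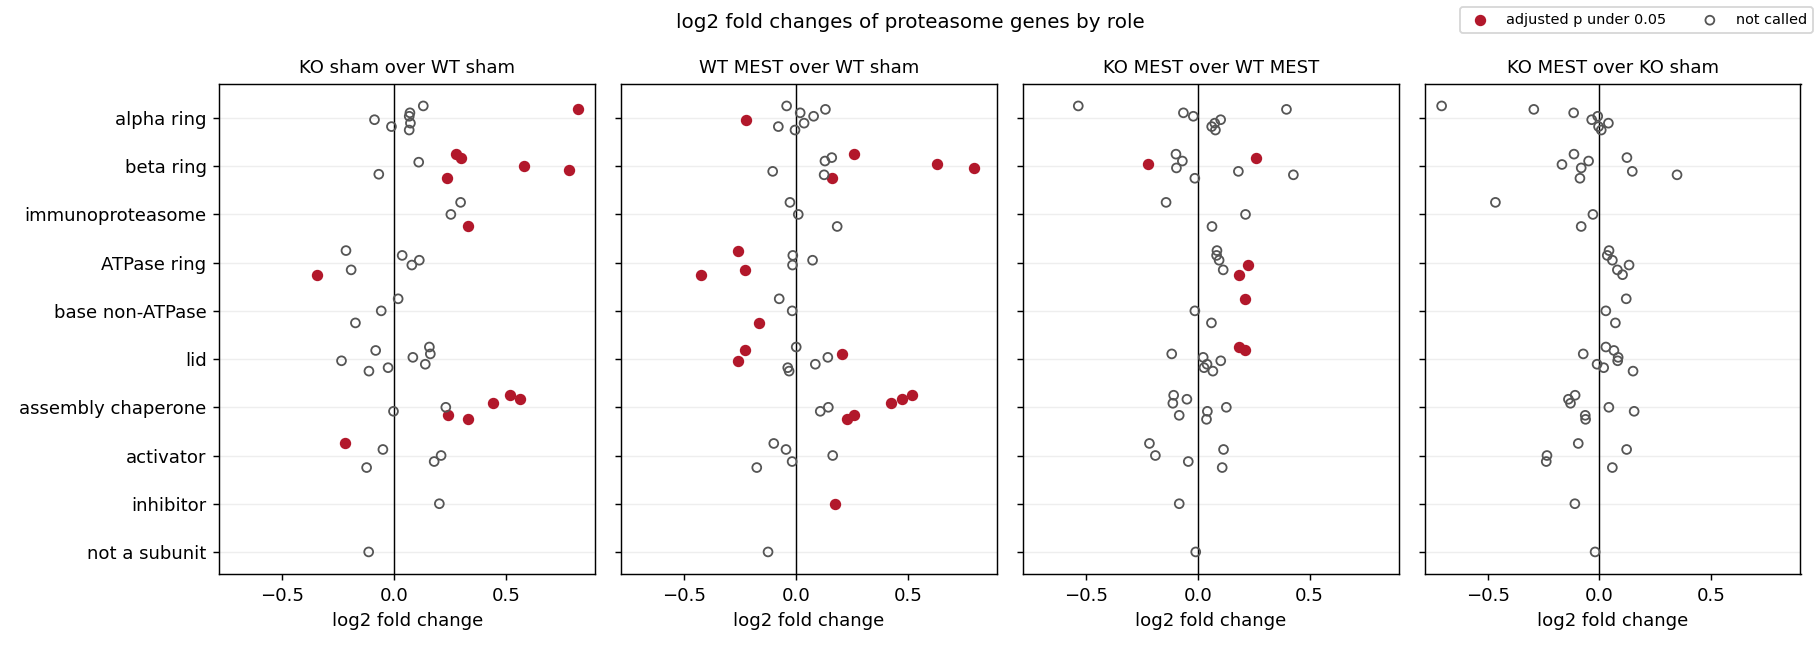
The plot of fold changes by role shows each tested member as 1 point, with the log2 fold change on the horizontal axis and the role on the vertical axis, in 4 comparisons. Filled points passed at an adjusted p under 0.05 (limma). Beta ring genes and assembly chaperones lie mostly to the right and ATPases partly to the left in both comparisons with WT sham. The largest value, 0.82, is that of the alpha subunit Psma7 in KO sham over WT sham. No point is filled for KO MEST over KO sham.

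The alpha ring gates the entrance of the barrel, and 6 of its 8 genes passed in no comparison. The exceptions were Psma7 and Psma4. Psma7 had 82.8, 60.7, 44.3, 39.2 and 62.5 CPM in KO MEST, 44.7, 44.8, 40.5, 40.2 and 42.2 CPM in WT MEST, 56.4, 88.7, 60.4 and 72.9 CPM in KO sham and 40.8, 39.7, 37.6, 41.1 and 34.7 CPM in WT sham libraries. All 4 KO sham libraries were above all WT sham libraries, and KO MEST libraries spread widely, between 39.2 and 82.8 CPM. Psma7 was higher in KO sham over WT sham mice (log2 fold change 0.82 ± 0.11, adjusted p = 0.00038), and 0.70 without KO sham replicate 3. In KO MEST over WT MEST tissue it was at 0.40 ± 0.18, adjusted p = 0.184, with overlapping libraries. Psma4 had 97.9, 100.2, 94.7, 88.6 and 93.5 CPM in KO MEST, 92.2, 82.3, 85.3, 84.9 and 98.1 CPM in WT MEST, 98.5, 128, 81.7 and 86.5 CPM in KO sham and 98.7, 103, 106, 113 and 96.3 CPM in WT sham libraries. WT MEST libraries were mostly below WT sham libraries, with 1 overlapping, and Psma4 was lower in WT MEST over WT sham mice (-0.22 ± 0.06, adjusted p = 0.00693), a call lost in the fit of all 19 libraries (adjusted p = 0.0561).

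In the beta ring, the structural subunits Psmb3 and Psmb4, which carry no active site, had the largest changes. Psmb3 had 38.8, 42.7, 39.5, 39.9 and 38.4 CPM in KO MEST, 42.6, 45.5, 48.4, 38.2 and 39.0 CPM in WT MEST, 40.1, 43.3, 44.2 and 41.2 CPM in KO sham and 27.8, 25.2, 20.2, 25.96 and 23.8 CPM in WT sham libraries. The WT sham values are all below the lowest value of the other 14 libraries, which overlap with each other. Psmb3 was higher in KO sham over WT sham mice (0.78 ± 0.09, adjusted p = 2.32e-05) and in WT MEST over WT sham mice (0.80 ± 0.08, adjusted p = 3.79e-07). Of the 100-base windows of its transcript, 18.0% also occur in another gene, mostly a pseudogene, so that the counting of reads from them is uncertain.

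Psmb4 had 82.1, 85.1, 80.5, 76.1 and 78.0 CPM in KO MEST, 95.5, 97.2, 103, 85.0 and 88.2 CPM in WT MEST, 80.4, 97.5, 101 and 84.0 CPM in KO sham and 55.4, 59.6, 62.7, 63.1 and 61.4 CPM in WT sham libraries. Here too the WT sham libraries were lowest without overlap, and KO MEST libraries were mostly below WT MEST libraries. Psmb4 was higher in KO sham over WT sham mice (0.58 ± 0.07, adjusted p = 8.82e-05) and in WT MEST over WT sham mice (0.63 ± 0.06, adjusted p = 1.08e-07), and lower in KO MEST over WT MEST mice (-0.22 ± 0.06, adjusted p = 0.0245). The last call was lost without any 1 of KO MEST replicates 3 and 5 or WT MEST replicates 1 and 3 (adjusted p up to 0.0577). Psmb1 had 135, 145, 147, 129 and 129.9 CPM in KO MEST, 149.7, 133, 136, 133 and 138 CPM in WT MEST, 150.0, 173, 131 and 131 CPM in KO sham and 122, 121, 129, 128 and 117 CPM in WT sham libraries. Psmb1, a further structural subunit, was higher in KO sham over WT sham mice (0.24 ± 0.08, adjusted p = 0.0424) and in WT MEST over WT sham mice (0.16 ± 0.05, adjusted p = 0.021), without overlap of the groups in either. In sham mice the call was lost without any 1 of KO sham replicates 2 and 3 or WT sham replicates 1, 2, 3, 4 and 5 (adjusted p up to 0.107) and after seizures without any 1 of WT MEST replicate 1 or WT sham replicates 2 and 5 (adjusted p up to 0.0677). The call in sham mice was also lost without a filter on low genes (adjusted p = 0.0736), and after seizures in the fit of all 19 libraries (adjusted p = 0.0681).

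Psmb5, Psmb6 and Psmb7 hold the active sites of the constitutive barrel, with chymotrypsin-like, caspase-like and trypsin-like activity. Psmb7 had 123, 118, 118, 121 and 113 CPM in KO MEST, 134, 120.4, 129, 123 and 128 CPM in WT MEST, 129, 152, 117 and 118 CPM in KO sham and 107, 104, 109.7, 107 and 102 CPM in WT sham libraries. WT sham libraries were again all lowest. Psmb7 was higher in KO sham over WT sham mice (0.28 ± 0.07, adjusted p = 0.0144, and 0.20 without KO sham replicate 3) and in WT MEST over WT sham mice (0.26 ± 0.05, adjusted p = 0.000421). Of the 100-base windows of its transcript, 20.0% also occur in transcripts of Nek6. Psmb6 had 100.5, 102, 91.9, 90.0 and 91.7 CPM in KO MEST, 80.3, 82.7, 90.1, 72.6 and 72.3 CPM in WT MEST, 90.6, 103, 80.9 and 77.5 CPM in KO sham and 71.7, 74.6, 66.6, 72.8 and 69.4 CPM in WT sham libraries. It was higher in KO mice in both conditions: 0.30 ± 0.08, adjusted p = 0.0127 in sham mice, without overlap, and 0.26 ± 0.06, adjusted p = 0.0179 in MEST mice, with overlap. The call in MEST mice was lost without any 1 of KO MEST replicate 2 or WT MEST replicate 4 (adjusted p up to 0.0529). Psmb6 in WT MEST over WT sham mice was at 0.16 ± 0.06, adjusted p = 0.0607. Psmb5 had 59.3, 61.0, 53.3, 55.5 and 51.7 CPM in KO MEST, 56.7, 64.8, 66.4, 51.5 and 55.9 CPM in WT MEST, 50.5, 54.1, 68.6 and 60.3 CPM in KO sham and 47.6, 54.8, 53.3, 58.2 and 55.1 CPM in WT sham libraries. Its groups overlapped in every comparison, and none of its adjusted p values was under 0.194.

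**Figure D3:**
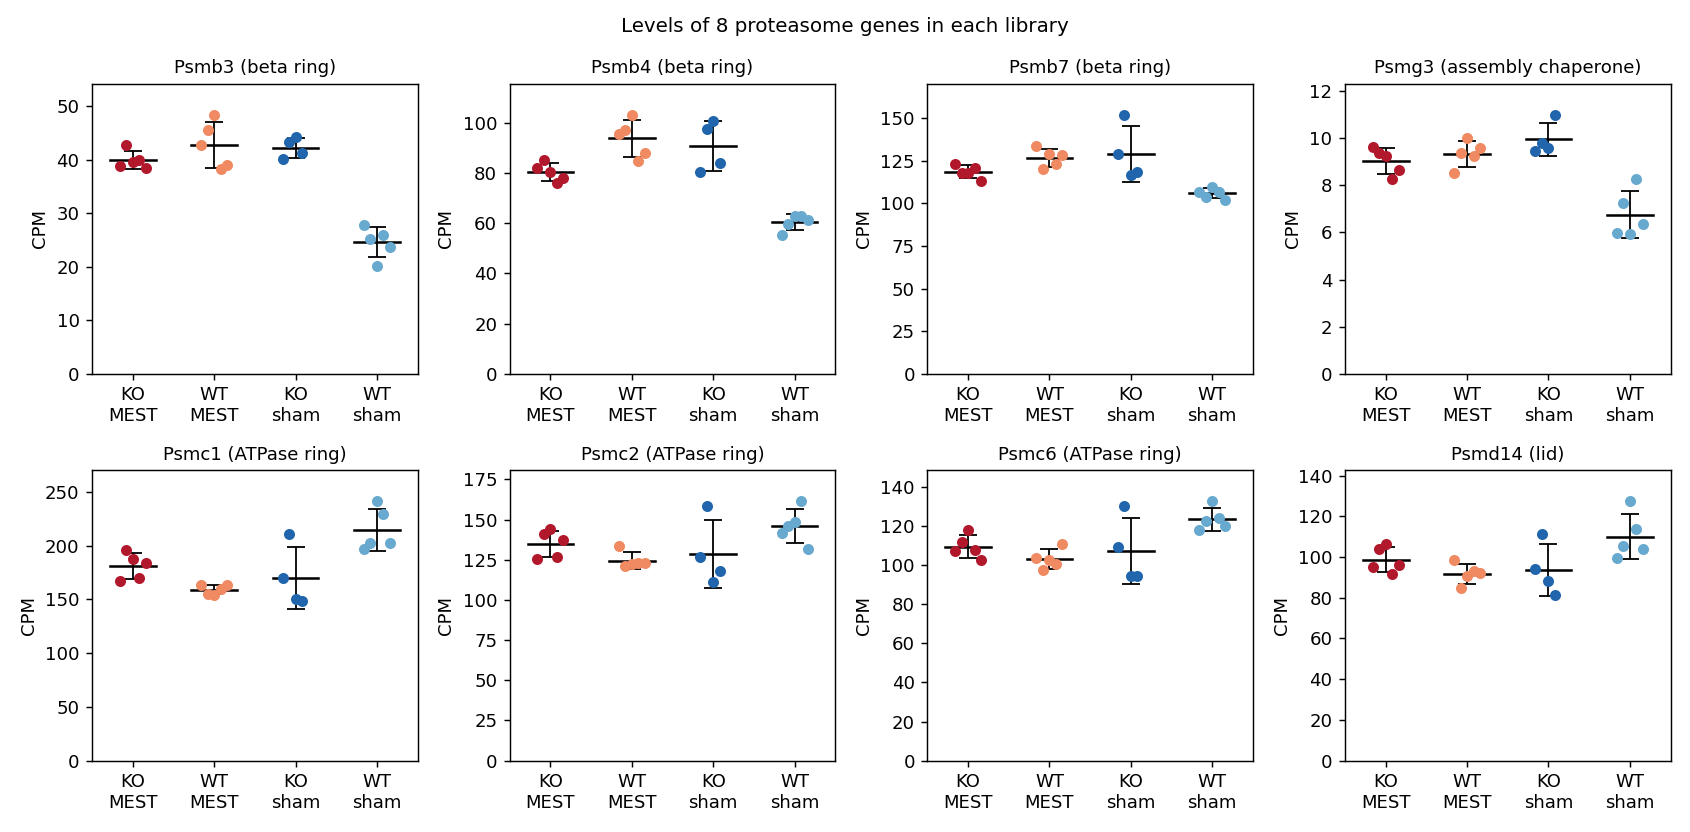
The plot of levels by library shows CPM on a linear vertical axis starting at 0, for 8 genes and 4 groups, with 1 point per library, the mean (line) and SD (error bar). Psmb3, Psmb4, Psmb7 and Psmg3 are lowest in WT sham libraries, with 20.2 to 27.8 CPM for Psmb3, and Psmc1, Psmc2, Psmc6 and Psmd14 have their highest mean there.

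Immunoproteasome subunits replace the 3 catalytic ones in immune cells and under interferon: Psmb8 takes the place of Psmb5, Psmb9 of Psmb6 and Psmb10 of Psmb7. Psmb10 had 28.7, 24.1, 23.3, 27.9 and 24.2 CPM in KO MEST, 21.9, 28.5, 27.5, 23.6 and 21.5 CPM in WT MEST, 25.5, 27.8, 27.3 and 27.7 CPM in KO sham and 21.4, 23.8, 20.7, 19.8 and 22.0 CPM in WT sham libraries. KO sham libraries were all above WT sham libraries, and Psmb10 was higher there (0.33 ± 0.07, adjusted p = 0.00671). Psmb8 had 3.23, 3.36, 3.07, 3.40 and 2.46 CPM in KO MEST, 2.97, 2.53, 3.11, 1.79 and 3.08 CPM in WT MEST, 2.98, 3.66, 2.88 and 3.12 CPM in KO sham and 2.30, 3.35, 2.60, 3.27 and 1.89 CPM in WT sham libraries. Psmb9 had 0.767, 0.841, 1.08, 1.01 and 1.09 CPM in KO MEST, 0.652, 0.824, 1.04, 1.56 and 1.48 CPM in WT MEST, 1.42, 1.57, 1.364 and 1.08 CPM in KO sham and 1.20, 1.21, 0.77, 1.28 and 1.01 CPM in WT sham libraries. Neither passed in any comparison, and their read numbers of 54 to 170 for Psmb8 and 20 to 73 for Psmb9 per library limit the precision.

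As a share of the reads of the 6 catalytic genes, which compares groups and not genes since their lengths differ, the 3 immunoproteasome genes took 9.91% ± 0.678 in KO MEST, 9.66% ± 0.763 in WT MEST, 10.3% ± 0.627 in KO sham and 9.88% ± 0.596 in WT sham libraries (SD). The libraries of all groups overlapped. Psmb10 took 17.8% ± 1.06, 16.2% ± 2.14, 17.5% ± 1.76 and 16.9% ± 1.26 of its pair with Psmb7 in that order. Psmb9 took 1.00% ± 0.201 of its pair with Psmb6 in KO MEST, 1.41% ± 0.602 in WT MEST, 1.52% ± 0.115 in KO sham and 1.51% ± 0.231 in WT sham libraries. All KO MEST libraries were below all KO sham libraries in this last share, and Psmb9 itself was at -0.46 ± 0.17, adjusted p = 0.175 in KO MEST over KO sham mice.

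**Figure D4:**
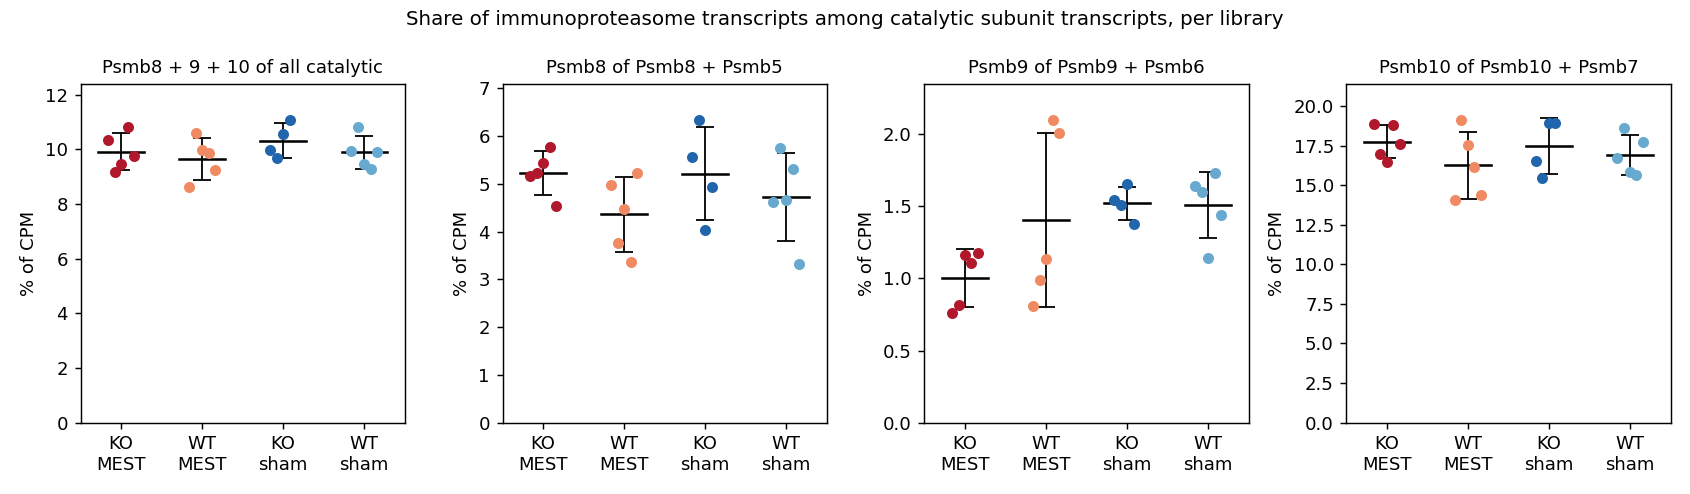
The plot of immunoproteasome shares gives the percentage of CPM on the vertical axis, starting at 0, for the 4 groups, with 1 point per library, the mean (line) and SD (error bar). The total share lies near 10% in all groups, with group means of 9.66% to 10.3%.

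The 6 ATPases Psmc1 to Psmc6 form the ring that unfolds the substrate. Psmc1 had 167, 196, 188, 170.2 and 184 CPM in KO MEST, 164, 155, 154, 159 and 163 CPM in WT MEST, 169.7, 211, 150.2 and 149 CPM in KO sham and 197, 202, 241, 229 and 202 CPM in WT sham libraries. WT sham libraries were all above WT MEST libraries, and only KO sham replicate 3 reached into their range among the KO sham libraries. Psmc1 was lower in WT MEST over WT sham mice (-0.43 ± 0.06, adjusted p = 9.77e-06) and in KO sham over WT sham mice (-0.35 ± 0.10, adjusted p = 0.0314), and higher in KO MEST over WT MEST mice (0.18 ± 0.05, adjusted p = 0.0347), there without overlap. Without KO sham replicate 3 the value in sham mice was -0.45 (adjusted p = 0.000146). That call was lost without any 1 of KO sham replicates 2, 4 and 5 or WT sham replicates 3 and 4 (adjusted p up to 0.0857), and the call among MEST mice was lost without any 1 of KO MEST replicates 2, 3 and 5 or WT MEST replicates 1, 2, 3 and 4 (adjusted p up to 0.0971), and also in the fit of all 19 libraries and with the length trend removed (adjusted p up to 0.132).

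Psmc2 had 126, 141, 144, 127 and 137 CPM in KO MEST, 133, 121, 122, 123 and 123 CPM in WT MEST, 126, 159, 111 and 118 CPM in KO sham and 142, 146, 149, 161 and 132 CPM in WT sham libraries. Psmc6 had 107, 112, 118, 108 and 103 CPM in KO MEST, 104, 97.8, 103, 101 and 111 CPM in WT MEST, 109.6, 130.3, 94.6 and 94.6 CPM in KO sham and 118, 123, 133, 124 and 119.9 CPM in WT sham libraries. KO sham replicate 3 is the highest of its group in both genes. Psmc2 (-0.23 ± 0.05, adjusted p = 0.00397) and Psmc6 (-0.26 ± 0.05, adjusted p = 0.000744) were lower in WT MEST over WT sham mice, Psmc6 without overlap. In KO sham over WT sham mice they were at -0.19 ± 0.09, adjusted p = 0.174 and -0.21 ± 0.08, adjusted p = 0.0941, and at -0.30 (adjusted p = 0.00252) and -0.31 (adjusted p = 0.00124) without replicate 3. Psmc3 had 172, 185, 175, 165 and 175 CPM in KO MEST, 149, 152, 156, 145 and 143 CPM in WT MEST, 157, 188, 152 and 143 CPM in KO sham and 147, 152, 156, 153 and 143 CPM in WT sham libraries. All KO MEST libraries were above all WT MEST libraries, and Psmc3 was higher there (0.23 ± 0.05, adjusted p = 0.00832), a call that all 10 fits without 1 library kept. Psmc4 and Psmc5 passed in no comparison.

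In the base, Psmd1 and Psmd2 form the scaffold and Psmd4 is a receptor for ubiquitin. Psmd1 had 183, 193, 197, 192 and 191 CPM in KO MEST, 194, 176, 182, 182 and 183 CPM in WT MEST, 184, 202, 166 and 177 CPM in KO sham and 212, 206, 206, 204 and 199 CPM in WT sham libraries. WT MEST libraries were all below WT sham libraries, and Psmd1 was lower there (-0.16 ± 0.05, adjusted p = 0.0121), a call lost at -0.12 with the length trend removed (adjusted p = 0.0589). Psmd4 had 102, 115, 100.2, 91.5 and 107 CPM in KO MEST, 87.3, 91.5, 93.9, 84.6 and 86.6 CPM in WT MEST, 91.2, 118, 84.8 and 87.9 CPM in KO sham and 93.0, 94.9, 89.6, 97.3 and 92.5 CPM in WT sham libraries. KO MEST libraries lay mostly above WT MEST libraries (0.21 ± 0.06, adjusted p = 0.0314), a call lost without any 1 of KO MEST replicates 2, 3 and 5 or WT MEST replicates 1, 4 and 5 (adjusted p up to 0.088) and in the fit of all 19 libraries (adjusted p = 0.0572). Psmd2 averaged 234 ± 7.30 CPM in KO MEST, 236 ± 7.61 CPM in WT MEST, 229 ± 12.6 CPM in KO sham and 239 ± 10.3 CPM in WT sham mice and passed in no comparison.

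The lid removes ubiquitin, through the protease Psmd14 in its pair with Psmd7. Psmd14 had 95.3, 104, 106, 91.9 and 95.9 CPM in KO MEST, 98.4, 84.8, 90.6, 92.9 and 92.3 CPM in WT MEST, 94.1, 111, 88.3 and 81.3 CPM in KO sham and 99.6, 106, 127, 114 and 104 CPM in WT sham libraries. Psmd14 was lower in WT MEST over WT sham mice (-0.26 ± 0.06, adjusted p = 0.00397), without overlap. Psmd7 had 132, 152, 134, 126 and 142 CPM in KO MEST, 125, 112, 115, 112 and 129.7 CPM in WT MEST, 130.2, 162, 118 and 118 CPM in KO sham and 139, 137, 139, 148 and 129 CPM in WT sham libraries. It was lower in WT MEST over WT sham mice (-0.23 ± 0.06, adjusted p = 0.00401) and higher in KO MEST over WT MEST mice (0.21 ± 0.06, adjusted p = 0.0352), with WT MEST libraries the lowest group in its mean. The call among MEST mice was lost without any 1 of KO MEST replicates 2, 3 and 5 or WT MEST replicates 2, 3 and 4 (adjusted p up to 0.0987) and without a filter on low genes, in the fit of all 19 libraries and with the length trend removed (adjusted p up to 0.0656). Psmd6 had 68.2, 68.4, 67.9, 57.5 and 58.7 CPM in KO MEST, 73.4, 63.6, 69.5, 68.9 and 71.6 CPM in WT MEST, 61.4, 78.5, 66.2 and 64.0 CPM in KO sham and 59.2, 63.1, 60.2, 60.4 and 57.8 CPM in WT sham libraries. This lid subunit was higher in WT MEST over WT sham mice (0.21 ± 0.05, adjusted p = 0.00736), without overlap. Psmd8 had 114, 111, 99.6, 102 and 102 CPM in KO MEST, 90.9, 94.6, 99.4, 89.8 and 89.5 CPM in WT MEST, 103, 123, 96.4 and 93.4 CPM in KO sham and 87.0, 96.4, 93.2, 92.4 and 94.6 CPM in WT sham libraries. KO MEST libraries were all above WT MEST libraries (0.18 ± 0.05, adjusted p = 0.0348), a call lost without any 1 of KO MEST replicates 1, 2 and 5 or WT MEST replicates 1, 4 and 5 (adjusted p up to 0.091) and in the fit of all 19 libraries (adjusted p = 0.0603). Psmd3, Psmd11, Psmd12 and Psmd13 passed in no comparison.

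Of the 7 assembly chaperones, 5 were higher in KO sham and 5 in WT MEST than in WT sham mice. The shares of all genes called higher were 8.18% and 12.3%. Both counts rest on the same WT sham libraries. Psmg1 with Psmg2, and Psmg3 with Psmg4, are pairs that build the alpha ring, and Psmd5, Psmd9 and Psmd10 help to build the base. Psmg3 had 9.61, 9.39, 9.23, 8.27 and 8.66 CPM in KO MEST, 8.51, 9.37, 10.0, 9.24 and 9.57 CPM in WT MEST, 9.44, 9.80, 9.60 and 11 CPM in KO sham and 5.96, 7.26, 5.94, 8.26 and 6.34 CPM in WT sham libraries. The WT sham values are below all others, the highest of them only just. Psmg3 was higher in KO sham over WT sham mice (0.56 ± 0.12, adjusted p = 0.00434) and in WT MEST over WT sham mice (0.47 ± 0.11, adjusted p = 0.00297). Psmg4 had 3.94, 3.88, 4.35, 4.001 and 3.86 CPM in KO MEST, 3.82, 5.31, 4.85, 3.71 and 4.12 CPM in WT MEST, 3.996, 4.39, 4.40 and 4.53 CPM in KO sham and 3.65, 2.27, 3.52, 2.43 and 3.34 CPM in WT sham libraries. Its partner Psmg4 was higher in the same 2 comparisons, at 0.52 ± 0.17, adjusted p = 0.0428 and 0.52 ± 0.16, adjusted p = 0.0236. The call in sham mice was lost without any 1 of KO sham replicates 2, 3, 4 and 5 or WT sham replicates 2, 4 and 5 (adjusted p up to 0.106), and the call after seizures was lost without any 1 of WT MEST replicates 2 and 3 or WT sham replicates 2 and 4 (adjusted p up to 0.0732). The call in sham mice was also lost without a filter on low genes and with the length trend removed (adjusted p up to 0.0699).

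Psmg2 had 14.05, 12.7, 15.8, 13.2 and 12.1 CPM in KO MEST, 13.5, 13.95, 15.9, 14.2 and 15.6 CPM in WT MEST, 13.9, 15.8, 16.2 and 13.4 CPM in KO sham and 11.9, 11.7, 13.1, 8.93 and 9.28 CPM in WT sham libraries. Psmg2 was higher at 0.44 ± 0.12, adjusted p = 0.018 in KO sham over WT sham mice and at 0.42 ± 0.10, adjusted p = 0.00435 in WT MEST over WT sham mice, without overlap in either. The call in sham mice was lost without any 1 of KO sham replicate 4 or WT sham replicate 5 (adjusted p up to 0.0563). Psmg1 averaged 10.5 ± 0.356 CPM in KO sham and 8.92 ± 0.730 CPM in WT sham mice and did not pass (0.23 ± 0.10, adjusted p = 0.127), although every KO sham library was above every WT sham library. Of the base chaperones, Psmd5 (0.24 ± 0.07, adjusted p = 0.028) and Psmd10 (0.33 ± 0.10, adjusted p = 0.0361) were higher in KO sham over WT sham mice and in WT MEST over WT sham mice (0.26 ± 0.06, adjusted p = 0.00491 and 0.23 ± 0.08, adjusted p = 0.0388). Psmd9 passed in no comparison. In sham mice the call of Psmd5 was lost without any 1 of KO sham replicates 2 and 5 or WT sham replicates 1, 2 and 5 (adjusted p up to 0.0733) and that of Psmd10 without any 1 of KO sham replicates 2, 3 and 5 or WT sham replicates 1, 2, 3 and 5 (adjusted p up to 0.0953). After seizures the call of Psmd10 was lost without any 1 of WT MEST replicates 1, 3, 4 and 5 or WT sham replicates 1, 2, 3 and 5 (adjusted p up to 0.103). Psmd10 was also lost without a filter on low genes and with the length trend removed (adjusted p up to 0.0837) in sham mice, and in the fit of all 19 libraries and with the length trend removed (adjusted p up to 0.147) after seizures.

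The activators Psme1, Psme2 and Psme3 (PA28) and Psme4 (PA200) cap the barrel in place of the regulatory particle, and Psmf1 (PI31) inhibits it in vitro. Psme4 had 51.8, 49.1, 58.4, 54.1 and 52.6 CPM in KO MEST, 67.9, 57.7, 51.8, 67.8 and 64.9 CPM in WT MEST, 56.9, 58.5, 53.0 and 58.7 CPM in KO sham and 62.1, 70.0, 66.3, 64.0 and 68.2 CPM in WT sham libraries. Psme4 was lower in KO sham over WT sham mice (-0.22 ± 0.06, adjusted p = 0.0226), without overlap, and at -0.22 ± 0.07, adjusted p = 0.0715 in KO MEST over WT MEST mice. The call in sham mice was lost without any 1 of KO sham replicate 4 or WT sham replicates 2 and 5 (adjusted p up to 0.0799), and at -0.14 with the length trend removed (adjusted p = 0.138). Psmf1 had 32.4, 31.6, 30.1, 30.8 and 33.1 CPM in KO MEST, 32.7, 34.9, 33.2, 33.6 and 32.9 CPM in WT MEST, 32.2, 35.4, 34.7 and 34.1 CPM in KO sham and 29.5, 32.4, 27.7, 30.9 and 27.7 CPM in WT sham libraries. Psmf1 was higher in WT MEST over WT sham mice (0.17 ± 0.06, adjusted p = 0.0471), without overlap, a call lost without any 1 of WT MEST replicates 1, 2, 3, 4 and 5 or WT sham replicates 1, 3 and 5 (adjusted p up to 0.113) and without TMM factors (adjusted p = 0.0541). In Psme2 and Psme2b, 44.5% and 52.0% of the 100-base windows occur in both, so their reads cannot be assigned with certainty, and neither passed.

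The difference of the seizure effects passed in 14 of 50 members, as tested by the interaction in a model of all 19 libraries (limma). The difference, KO minus WT, was positive in 5 and negative in 9, against 9.65% and 8.95% of all 16596 genes. The negative ones were Psmb3 (-0.88 ± 0.11, adjusted p = 3.58e-06), Psmb4 (-0.80), Psmg4 (-0.63), Psmg3 (-0.61), Psmg2 (-0.55), Psmb7 (-0.37), Psmd5 (-0.32), Psmf1 (-0.28) and Psmd6 (-0.28). The positive ones were Psmc1 (0.53 ± 0.11, adjusted p = 0.00144), Psmd14 (0.34), Psmc2 (0.31), Psmc6 (0.30) and Psmd1 (0.23). The share of positive members was near that of all genes. The WT part of this difference rests on the same libraries as WT MEST over WT sham. It thus holds the WT sham mice, which were younger and stood apart on the first principal component. A seizure effect that depends on genotype and a WT sham group that stands apart cannot be told apart here. The count of positive members was 11 without KO sham replicate 3, 1 without KO sham replicate 4, 2 without KO sham replicate 5, WT sham replicate 3 or KO MEST replicate 3, and 3 without WT MEST replicates 2 or 4 or KO MEST replicate 2, while that of negative members stayed between 7 and 11. Over all genes the positive calls were 1845 without KO sham replicate 3 and 1373 without KO sham replicate 4, against 1602 with every library. The median difference over the members was -0.03, and 0.03 without KO sham replicate 3. Of the 14 calls, those of Psmb3, Psmb4, Psmb7, Psmc1, Psmd5, Psmf1, Psmg2 and Psmg3 held in all 19 fits without 1 library, while Psmc2 held in 6, Psmd6 in 7, Psmc6 in 12, Psmd14 in 15, Psmg4 in 15 and Psmd1 in 18. Psmc2 was also lost without TMM factors, without a filter on low genes, with edgeR and with the length trend removed (adjusted p up to 0.0874), Psmd1 with the length trend removed (adjusted p = 0.117), Psmg4 with the length trend removed (adjusted p = 0.0668), Psmd6 without a filter on low genes (adjusted p = 0.0565) and Psmc6 without a filter on low genes (adjusted p = 0.0516).

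Of 32 other genes of the pathway, 31 were found in the tables. In KO sham over WT sham mice 7 were higher and 3 lower, against 8.18% and 7.18% of all genes. In WT MEST over WT sham mice 8 were higher and 4 lower, against 12.3% and 12.3%, and in KO MEST over WT MEST mice 1 was higher and 3 lower, against 5.65% and 4.27%. In KO MEST over KO sham mice 0 were higher and 0 lower (limma), against 0.904% and 0.489% of all genes. At an unadjusted p under 0.05, 1 was higher and 3 lower, against 9.69% and 8.08% of all genes. Ubb and Rps27a, which encode ubiquitin precursors, were among the higher ones. In KO sham over WT sham mice Ubb was at 0.33 ± 0.07, adjusted p = 0.00357 and Rps27a at 0.72 ± 0.18, adjusted p = 0.0338, both without overlap of the libraries. Rps27a had 138, 216, 115 and 115 CPM in KO sham and 88.5, 87.6, 86.3, 93.1 and 74.7 CPM in WT sham libraries, KO sham replicate 3 being far above the rest. Without that library it was at 0.51 (adjusted p = 9.79e-05), and its call was lost without any 1 of KO sham replicate 2 or WT sham replicates 1, 2, 3, 4 and 5 (adjusted p up to 0.0692). In WT MEST over WT sham mice Ubb was at 0.21 ± 0.06, adjusted p = 0.0186, with overlap and a call lost without any 1 of WT MEST replicate 3 or WT sham replicate 5 (adjusted p up to 0.0678), and Rps27a at 0.54 ± 0.07, adjusted p = 6.08e-06, without overlap.

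Rad23b, a shuttle that carries ubiquitinated proteins to the proteasome, was lower in KO sham (-0.45 ± 0.07, adjusted p = 0.000314) and in WT MEST (-0.44 ± 0.06, adjusted p = 6.18e-06) than in WT sham mice. Ubqln2, another shuttle, was higher in WT MEST over WT sham mice (0.34). Shfm1, which encodes the small lid subunit Sem1, was lower in WT MEST over WT sham mice (-0.47 ± 0.06, adjusted p = 7.32e-06) and in KO sham over WT sham mice (-0.27 ± 0.08, adjusted p = 0.0371). Its call in sham mice was lost without any 1 of KO sham replicates 4 and 5 or WT sham replicates 1, 3, 4 and 5 (adjusted p up to 0.129), and also without a filter on low genes and with TMM factors within the comparison (adjusted p up to 0.0672). Midn, which encodes midnolin, was lower in KO sham over WT sham mice (-0.34 ± 0.09, adjusted p = 0.0237), a call lost without any 1 of KO sham replicates 2 and 5 or WT sham replicates 1, 4 and 5 (adjusted p up to 0.0723), and in WT MEST over WT sham mice (-0.35 ± 0.12, adjusted p = 0.0394), a call lost without any 1 of WT MEST replicates 1, 4 and 5 or WT sham replicates 1, 2, 4 and 5 (adjusted p up to 0.0937) and without TMM factors (adjusted p = 0.0524). Uchl5, a deubiquitinase of the base, was lower in WT MEST over WT sham mice (-0.20 ± 0.06, adjusted p = 0.0236), a call lost without any 1 of WT MEST replicates 2 and 3 or WT sham replicate 4 (adjusted p up to 0.0733) and in the fit of all 19 libraries (adjusted p = 0.0725).

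Zfand5, an activator of the proteasome, was lower in KO MEST over WT MEST mice (-0.28 ± 0.05, adjusted p = 0.00519), without overlap. Ubb was higher there (0.24 ± 0.07, adjusted p = 0.0346), a call lost without any 1 of KO MEST replicates 2, 3 and 5 or WT MEST replicates 1, 4 and 5 (adjusted p up to 0.0971) and without a filter on low genes (adjusted p = 0.0593). The ubiquitin ligase Ube3a was lower (-0.22 ± 0.06, adjusted p = 0.0327), a call lost without any 1 of KO MEST replicates 1, 2 and 3 or WT MEST replicates 1, 4 and 5 (adjusted p up to 0.0867) and without a filter on low genes and in the fit of all 19 libraries (adjusted p up to 0.302). Txnl1, which binds the regulatory particle, was lower (-0.19 ± 0.06, adjusted p = 0.0446), a call lost without any 1 of KO MEST replicates 1, 2, 3 and 5 or WT MEST replicates 1, 4 and 5 (adjusted p up to 0.109) and without a filter on low genes and in the fit of all 19 libraries (adjusted p up to 0.065). The difference of the seizure effects was positive in 4 and negative in 6 of the 31, against 9.65% and 8.95% of all genes, namely Rad23b (0.57), Shfm1 (0.46), Midn (0.50) and the ubiquitin receptor Adrm1 (0.33) in the first direction, and among others Zfand5 (-0.39) and Ubqln2 (-0.34) in the second. The call of Adrm1 was lost in 9 of 19 fits without 1 library and that of Midn in 4 of 19.

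Other measures moved with the groups. KO sham libraries had 34.3 to 46.3 M reads and WT sham libraries 27.6 to 32.3 M, without overlap. The summed level of 6 markers of inhibitory neurons, none of them at 0, was 1063 to 1103 CPM in KO sham and 1066 to 1165 CPM in WT MEST, against 890 to 1042 CPM in WT sham libraries, with 2 of 6 called higher in KO sham and 3 of 6 in WT MEST mice. The summed level of 6 markers of excitatory neurons was 4852 to 5761 CPM in KO sham and 5259 to 5714 CPM in WT MEST, against 5653 to 6460 CPM in WT sham libraries. In KO MEST over WT MEST mice, 4 of 7 oligodendrocyte markers were lower, against 4.27% of all genes. Their sums were 5996 to 6579 CPM in KO MEST and 6253 to 8474 CPM in WT MEST libraries. In KO MEST over KO sham mice 3 of the 7 were lower, against 0.489% of all genes. The KO sham sums were 6666 to 7191 CPM, without overlap with KO MEST. The difference of the seizure effects was negative in 4 of the 7, against 8.95% of all genes. The 5 markers of hippocampal subfields summed to 291 to 348 CPM in KO MEST libraries, against 262 to 301 CPM in WT MEST and, without overlap, 239 to 254 CPM in KO sham libraries. The 5 markers of meningeal fibroblasts summed to 78.1 to 104 CPM in KO MEST, against 64.1 to 74.8 CPM in WT MEST and 57.6 to 69.6 CPM in KO sham libraries, without overlap in either. The 6 endothelial markers summed to 202 to 221 CPM in KO MEST and 222 to 239.7 CPM in WT MEST libraries, without overlap, and to 219 to 235 CPM in KO sham libraries. None of the hippocampal, meningeal and endothelial markers was at 0. At most 2 of each of these lists passed in KO MEST over WT MEST or KO MEST over KO sham mice. Over all genes, the log2 fold change fell with exonic length in KO sham over WT sham mice (Spearman's rho = -0.202 across 16053 genes, which are not independent). With that length trend removed, 63.5% of all genes called in KO sham over WT sham mice were higher, against 53.2% with it, and 54.9% against 64.9% in KO MEST over KO sham mice. The median over all genes in KO sham over WT sham mice was 0.01 without the trend and -0.02 with it. The core ratio of KO sham over WT sham mice was then 0.22 on the log2 scale, against 0.25 with the trend. The part of cell types, depth and length in the results was not tested.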

How the data were processed

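Poly-A RNA (TruSeq Stranded mRNA) was sequenced from 19 mice. The authors trimmed reads (Trimmomatic 0.39), aligned them to mm10 (HISAT2 2.2.1) and counted genes with featureCounts (Subread 2.0.3). Their strand and multi-mapping settings are not given in the sources used here. The deposited values are a signal per gene: counts divided by DESeq2 1.36.0 size factors, in separate WT and KO tables, which also hold the authors' fold changes and p-values, not used here. Because the values were multiples of 1 step per library, whole reads could be recovered for 100% of values (tolerance 0.01). After 27 rows with symbols turned into dates (at most 0.384% of reads) were dropped, 24394 genes remained.

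CPM was taken from each library's own total with TMM factors over all 19 libraries (edgeR 4.0.16). Genes with 0.2 CPM or more in enough libraries to fill the smaller group were tested with limma 3.58.1 (trend and robust) on log2(CPM + 0.1), which understates the change of low genes, with Benjamini-Hochberg adjustment over all genes tested and a threshold of 0.05. Values are log2 fold changes ± SE. The difference of seizure effects was the interaction in a model of 4 groups. Summaries used Python 3.11.15, pandas 2.3.3 and numpy 2.4.6, R 4.3.3, and plots matplotlib 3.10.9. The code was tested on simulated data. Each library is 1 mouse. Alternatives were other scalings, pseudocounts (0.5 and 1) and filters (none and 1 CPM), edgeR and DESeq2 1.42.0 on the recovered reads, the replicate block, 1 fit over all 19 libraries, removal of the length trend and leaving out each library. TMM factors within each comparison were added after seeing the data. Members, lists and tests were chosen with earlier results of these data known. Per-library values are given for the catalytic genes and for up to 5 called members with the largest change in each direction per comparison, and for Psma4, Psmd1, Psmd6, Psmd8 and Psmf1, chosen after their values were seen. Of the other pathway genes, some that the same rule would name are not reported here.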

Additional observations from a re-analysis of the deposited data

Results flagged for a closer look

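In 3 of 116 sets of 4 or 5 libraries, 1 library lay far from the others of its group, where chance gives about 1 in 20. WT MEST replicate 1 had 149.7 CPM of Psmb1, against 133 to 138 CPM in the other WT MEST libraries, and 133 CPM of Psmc2, against 121 to 123 CPM. KO MEST replicate 3 had 4.35 CPM of Psmg4, against 3.86 to 4.001 CPM in the other KO MEST libraries.

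The difference of the seizure effects between KO and WT mice passed in 14 of 50 members by the interaction test of limma, adjusted over all genes. It was positive in 5 and negative in 9 members, against 9.65% and 8.95% of all 16596 genes. The positive share was near that of all genes. The difference (KO minus WT, log2) was negative for Psmb3 (-0.88, adjusted p = 3.58e-06), Psmb4 (-0.80, adjusted p = 1.70e-06), Psmb7 (-0.37, adjusted p = 0.00259), Psmg2 (-0.55, adjusted p = 0.0084), Psmg3 (-0.61, adjusted p = 0.00245), Psmg4 (-0.63, adjusted p = 0.0268), Psmd5 (-0.32, adjusted p = 0.0085), Psmd6 (-0.28, adjusted p = 0.042) and Psmf1 (-0.28, adjusted p = 0.0161). It was positive for Psmc1 (0.53, adjusted p = 0.00144), Psmc2 (0.31, adjusted p = 0.0415), Psmc6 (0.30, adjusted p = 0.0339), Psmd1 (0.23, adjusted p = 0.0218) and Psmd14 (0.34, adjusted p = 0.0256). KO sham replicate 3 enters this test. So do the younger WT sham libraries, which stood apart from all others. Their part in these calls cannot be told apart from a seizure effect that depends on genotype. The calls of Psmc2 and Psmd6 held in only 6 and 7 of 19 fits without 1 library.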

How the results depend on the processing

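No called gene and no core ratio changed direction under an alternative, while the median over the members changed sign under some, among them without KO sham replicate 3 in KO MEST over KO sham mice and in the difference of seizure effects. Over the genes called, 1906 values under the alternatives stayed past the threshold and 285 did not. Calls gained are not in this count, such as those of Psmc2, Psmc6 and Psmd14 in KO sham over WT sham mice without KO sham replicate 3. In KO MEST over WT MEST mice, 2 members were higher in the fit of all 19 libraries, 3 with the replicate block and 3 with the block and the length trend removed, against 6, and 2 were lower with DESeq2 and 2 in the fit of all 19, against 1. Over all genes the higher calls in the first 3 of these fits were 838, 668 and 700, against 907. In KO sham over WT sham mice, 5 were lower in the fit of all 19 and 1 with the length trend removed, against 2. Over all genes the lower calls there were 1459 and 905, against 1162. The core ratio of KO sham over WT sham was 0.225 with the length trend removed, against 0.248, and that of WT MEST over WT sham was 0.155 as a mean of log2 values per gene, against 0.201. Leaving out 1 library gave 7 to 10 higher and 0 to 8 lower members in KO sham over WT sham, 1 to 8 and 0 to 1 in KO MEST over WT MEST, 8 to 11 and 7 to 8 in WT MEST over WT sham, 0 and 0 in KO MEST over KO sham, and 1 to 11 and 7 to 11 for the difference of seizure effects. The core ratios then ranged between 0.238 and 0.255, -0.0753 and -0.0524, 0.194 and 0.214, and -0.122 and -0.0983 in the first 4 of these. Same-numbered libraries correlated at -0.109 to 0.391 over 13400 genes, the highest value being that of replicate 3 in KO MEST and KO sham mice. Libraries with different numbers were not correlated, so these values cannot decide whether the numbers mark pairs. The main fit uses no pairing. The block ended the calls of Psmb1, Psmd5 and Psmd10 in KO sham over WT sham, of Psmc1, Psmd7 and Psmd8 in KO MEST over WT MEST, and of Psmd10 and Psmf1 in WT MEST over WT sham mice. Groups of 4 and 5 mice and the low reads of Psma8, Psmb8, Psmb9 and Psmb11 limit the precision.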
